A study of Mus musculus with 14 samples.

Results

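The 7 libraries described here came from the caudal intervertebral discs of male C57BL/6J mice, 3 with type 2 diabetes induced by streptozotocin and a high-fat diet (STZ-HFD, replicates 2, 3 and 4) and 4 controls (Con+Veh, replicates 1 to 4). Members were the protein-coding genes of the gene table, of which 12290 of 21936 passed the filter on low counts and were tested, and the libraries were 7 of the 14 in the series. STZ-HFD mice ate high-fat chow for 4 to 6 weeks, received 1 injection of 100 mg/kg streptozotocin, a toxin of the insulin-producing beta cell, and stayed on the diet for 12 more weeks. Con+Veh mice ate standard chow and received the citrate vehicle. No engineered allele is named for either group, all mice were skeletally mature at entry, the discs of 1 mouse were pooled into 1 library, and no group received the diet or the drug alone, so their effects cannot be told apart.

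STZ-HFD replicate 1 was left out because it had at least 1 count on 1106 of 1138 olfactory receptor genes, whose normal place of expression is the nose. The 7 libraries kept had a count on 178 to 319 of these genes, and the 2 nearest to the cut were Con+Veh replicate 3 with 319 and STZ-HFD replicate 3 with 313. The library left out also had a count on 20386 protein-coding genes against 15987 to 17201 in the libraries kept, at the smallest total, 16076908 counts against 23173075 to 58943169. The libraries were chosen by these counts, which carry no test. Levels in the library left out are given beside the main results, on a scale set with all 8 libraries.

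**Figure D1:**
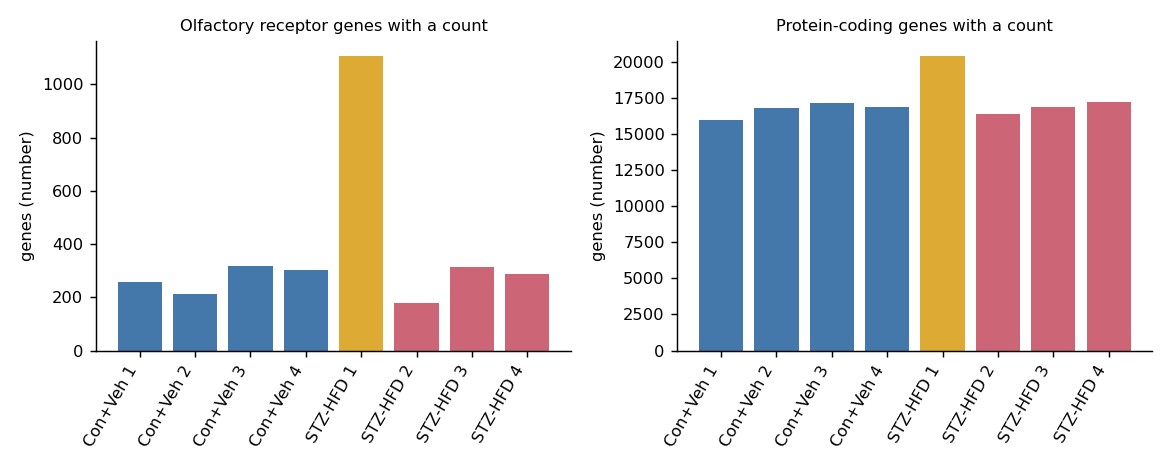
Number of olfactory receptor genes (left) and of protein-coding genes (right) with at least 1 count, 1 bar per library, for Con+Veh (blue), STZ-HFD replicates 2 to 4 (red) and the STZ-HFD library left out (yellow). The library left out reaches 1106 of 1138 olfactory receptor genes, and the others stay between 178 and 319.

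The disc consists of a gelatinous nucleus pulposus, a lamellar annulus fibrosus and cartilaginous endplates. Its cells keep a matrix of collagens and of proteoglycans such as aggrecan, whose charged sugar chains hold water, and they rely largely on glycolysis because the tissue has almost no vessels. In muscle and other oxidative tissues, fatty acids switch on genes for their own uptake and oxidation through the PPAR nuclear receptors. Pdk4, which blocks the entry of pyruvate into the mitochondrial tricarboxylic acid cycle, is a standard target of this switch, and diabetes and fat feeding are known to raise it.

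Levels are CPM, a gene's share of its library's counts scaled to a common total, on library sizes scaled by the trimmed mean of M values (TMM), and 3 counts were worth 0.0509 to 0.1295 CPM before scaling in the 7 libraries. A call of higher or lower needed a log2 fold change of 1 or more in size and an adjusted p under 0.05 from limma's voomWithQualityWeights, with Benjamini-Hochberg adjustment over all genes tested. The log2 fold changes given are weighted by library as well. The weights were 0.283, 0.476, 2.96 and 1.74 for Con+Veh replicates 1 to 4, so replicates 3 and 4 set most of each control mean. The test called 231 protein-coding genes higher (1.88%) and 129 lower (1.05%) in STZ-HFD. The count rested on the quality weights and on single libraries. With edgeR's quasi-likelihood test it was 2 higher (0.0163%) and 0 lower (1206 genes at an unadjusted p under 0.05), with voom without weights 2 and 0, and with DESeq2 104 (0.846%) and 90 (0.732%). With the 13 libraries of all 4 groups in 1 fit it was 302 (2.27%) and 201 (1.51%). It was 1 and 0 without Con+Veh replicate 3, 2 and 0 without Con+Veh replicate 4, 1 and 0 without STZ-HFD replicate 3, 7 and 8 without STZ-HFD replicate 4, and 368 and 289 without Con+Veh replicate 2. Con+Veh replicate 1 stood apart from the other 6 libraries on the first principal component (38.5% of the variance), and without it the count was 197 and 112. Keeping STZ-HFD replicate 1 in the fit gave 144 (1.13%) and 136 (1.06%), with 140 and 116 of the calls shared.

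Fabp3 and Pdk4 were called in 19 of 20 alternative fits, more than any other gene, and a called gene had its call in a median of 9. For the other 358 called genes edgeR's adjusted p was 0.162 or more. Of the 12290 genes, 720 (5.86%) had all 3 STZ-HFD libraries above all 4 Con+Veh libraries and 527 (4.29%) had all 3 below. Among the called genes this separation held for 167 of the 231 higher and 90 of the 129 lower ones.

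**Figure D2:**
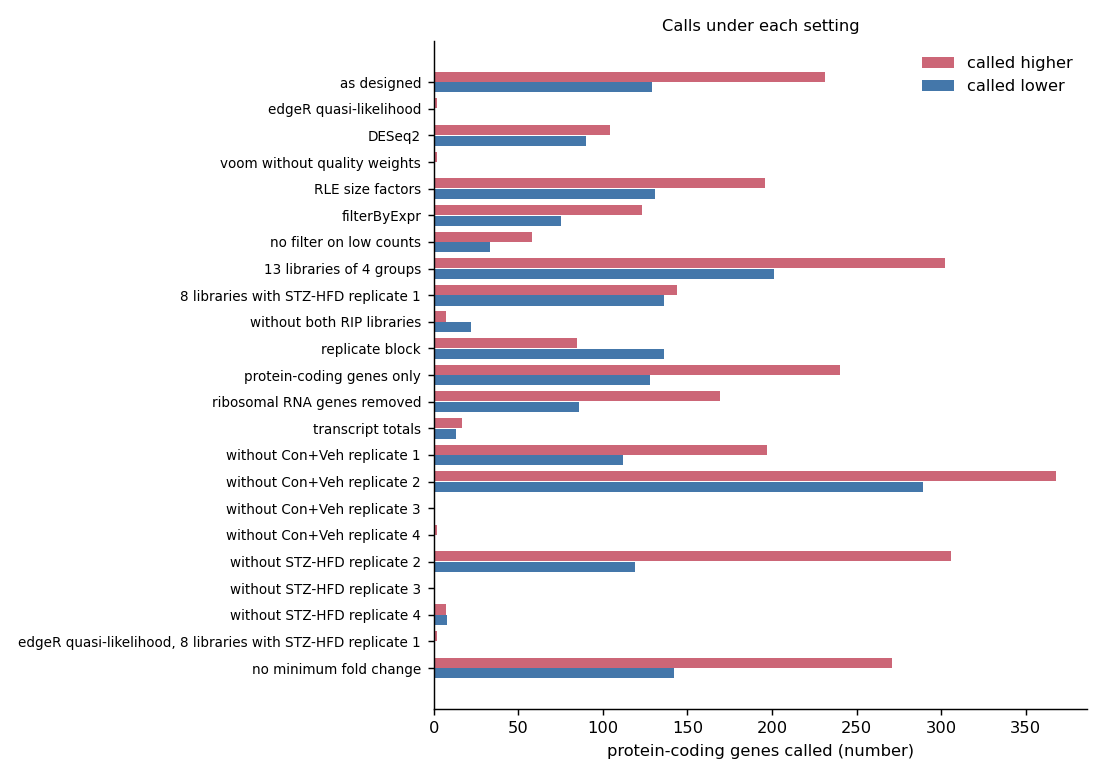
Number of protein-coding genes called higher (red) and lower (blue) in STZ-HFD, 1 pair of bars per fit, from the fit as designed at the top through the other tests, filters and sets of libraries. The bars for edgeR, for voom without quality weights and for the fits without Con+Veh replicate 3 or 4 or STZ-HFD replicate 3 stand at 0 to 2 genes.

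Muscle and cartilage transcripts moved with the groups. The summed level of 12 skeletal muscle markers was 6443 to 8385 CPM in Con+Veh and 17116 to 18632 CPM in STZ-HFD, with no overlap, and 8 of the 12 were called higher. In the library left out the sum was 8518 CPM, close to the highest control. The summed level of 10 chondrocyte markers was 1115 to 2579 CPM in Con+Veh, 517 to 1062 CPM in STZ-HFD and 667 CPM in the library left out, with 4 of the 10 called lower. Acan was the largest part of this sum, at 753 to 1187 CPM in Con+Veh and 245 to 701 CPM in STZ-HFD. Acan, Col2a1, Sox9, Hapln1 and Comp are given again below and are not independent of the sum. The sums of the other 11 marker lists overlapped between the groups, including nucleus pulposus and notochord (1531 to 4476 against 2770 to 6069 CPM), annulus fibrosus and tendon (1459 to 2808 against 1178 to 2409 CPM), adipocyte (488 to 839 against 810 to 1211 CPM) and macrophage (81.1 to 179 against 68.9 to 118 CPM). The neutrophil sum was 0.799 to 11.7 CPM in Con+Veh and 0.934 to 1.13 CPM in STZ-HFD, and no marker of any list was at 0 in every library. In these bulk samples, a change in the number of cells of a type and a change in RNA per cell cannot be told apart. Skeletal muscle is not among the disc parts named above. The share of adjoining tissue in each sample is not given and was not tested, so it cannot be told apart from a change within the disc. The part of the muscle and cartilage sums in the results that follow was not tested, other than through the ratios given below.

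**Figure D3:**
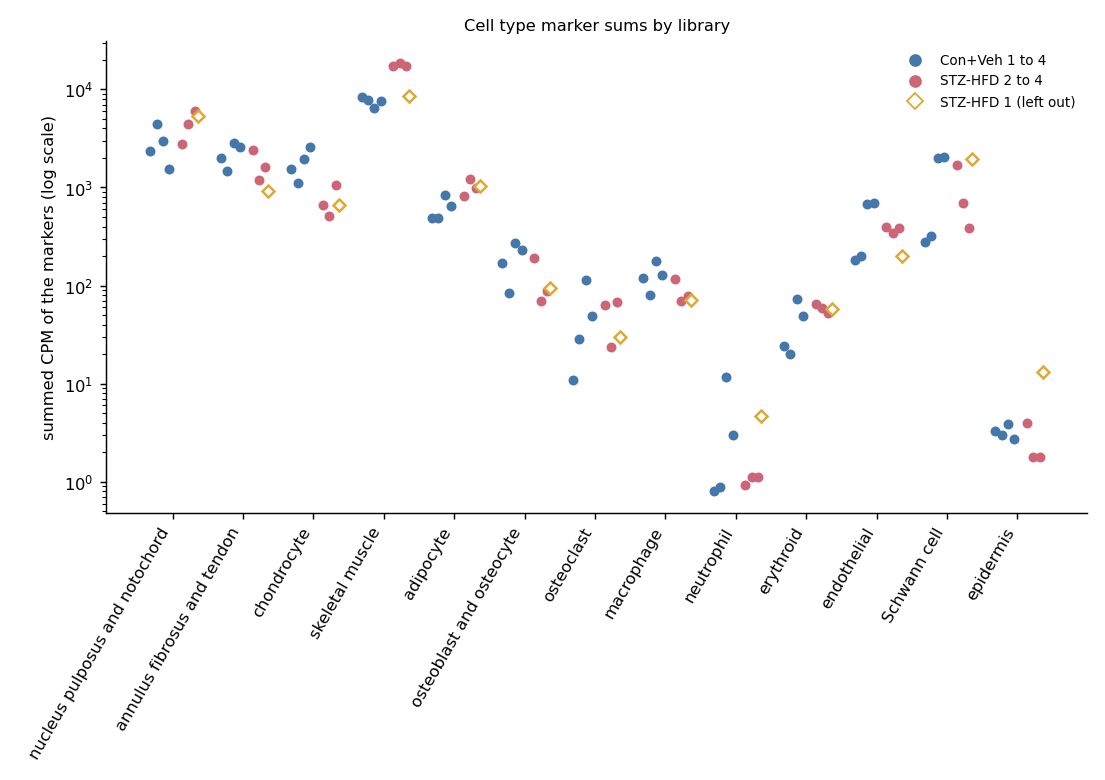
Summed CPM (log axis) of 13 cell type marker lists, 1 point per library, for Con+Veh (blue), STZ-HFD replicates 2 to 4 (red) and the library left out (open diamonds). Only the skeletal muscle and chondrocyte sums separate the 3 STZ-HFD from the 4 Con+Veh libraries, and the library left out lies near the controls for muscle and among the STZ-HFD libraries for cartilage.

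Upstream sequences are shown for the genes with the most stable calls, Fabp3 and Pdk4, for Fbp2, which had the largest rise, for Chad, which had the largest fall, and for Clcn1, the chloride channel of muscle, and Ppp1r3a, the muscle subunit that targets a phosphatase to glycogen, both called higher with a motif upstream. Each run is taken from the 250 bases before a RefSeq start on build GRCm38.p6, 5′ to 3′ on the gene's strand, and is trimmed where the GENCODE M21 gene begins earlier. The runs lie at chr4:130308488-130308594 (plus strand, Fabp3), chr6:5496310-5496528 (minus strand, Pdk4), chr13:62858423-62858650 (minus strand, Fbp2), chr6:42286435-42286684 (plus strand, Clcn1), chr6:14755275-14755524 (minus strand, Ppp1r3a) and chr11:94564797-94565046 (plus strand, Chad). Capitals mark a match on either strand to 1 of 6 motifs searched, TCAAGGTCA (ERR element), CACGTG (E-box), TTATGTAA (D-box) and, by their consensus, the PPAR-type direct repeat DR1, the NRF1 site and the AT-rich MEF2 site.
Fabp3: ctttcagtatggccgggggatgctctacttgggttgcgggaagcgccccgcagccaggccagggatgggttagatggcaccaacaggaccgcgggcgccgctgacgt
Pdk4: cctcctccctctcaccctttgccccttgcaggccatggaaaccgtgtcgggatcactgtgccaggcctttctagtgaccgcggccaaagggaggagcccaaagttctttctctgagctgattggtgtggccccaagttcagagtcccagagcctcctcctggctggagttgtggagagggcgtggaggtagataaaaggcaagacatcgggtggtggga
Fbp2: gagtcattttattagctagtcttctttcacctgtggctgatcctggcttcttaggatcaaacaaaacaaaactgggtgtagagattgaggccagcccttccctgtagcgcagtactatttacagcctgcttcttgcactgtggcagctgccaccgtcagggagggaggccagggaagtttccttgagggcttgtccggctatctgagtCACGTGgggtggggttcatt
Clcn1: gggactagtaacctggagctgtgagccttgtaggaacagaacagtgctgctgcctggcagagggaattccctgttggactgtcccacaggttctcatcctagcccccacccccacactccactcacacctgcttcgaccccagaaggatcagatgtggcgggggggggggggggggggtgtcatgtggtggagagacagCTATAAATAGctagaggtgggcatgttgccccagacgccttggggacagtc
Ppp1r3a: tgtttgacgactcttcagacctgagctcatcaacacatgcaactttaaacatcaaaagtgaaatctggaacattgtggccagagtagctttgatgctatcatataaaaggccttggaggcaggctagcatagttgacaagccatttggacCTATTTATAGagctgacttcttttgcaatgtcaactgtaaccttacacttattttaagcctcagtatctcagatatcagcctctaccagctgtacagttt
Chad: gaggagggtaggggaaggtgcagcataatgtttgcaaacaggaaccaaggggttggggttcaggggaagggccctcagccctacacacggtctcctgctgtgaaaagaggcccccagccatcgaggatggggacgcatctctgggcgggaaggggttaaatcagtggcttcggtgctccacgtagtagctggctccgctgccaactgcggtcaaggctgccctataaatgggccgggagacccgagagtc
The Fbp2 run held an E-box beginning 42 bases before the RefSeq start, and the Clcn1 and Ppp1r3a runs a MEF2 motif beginning 51 and 100 bases before it. Of all 32851 promoter windows of 300 bases, 7.15% held the E-box and 0.164% the MEF2 motif, and the shares for the ERR element, DR1, NRF1 and D-box were 0.423%, 0.0396%, 0.971% and 0.938%. Clcn1 and Ppp1r3a are shown because they hold a motif, and the runs are shorter than the windows. These shares therefore cannot be compared with the matches shown. No match lay in the Fabp3, Pdk4 or Chad runs. A promoter window was matched for 180 of the 231 genes called higher and 100 of the 129 called lower, under 80% of each set, so a comparison of motif shares between the sets is void and is not given. Clcn1 was at 9.4 to 17 CPM in Con+Veh and 27.2 to 29.1 CPM in STZ-HFD (log2 fold change 1.29), and Ppp1r3a at 18.8 to 41 CPM against 38 to 90.7 CPM, with overlap (log2 fold change 1.59).

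Genes of fatty acid uptake and PPAR targets included both of the most stable calls, Fabp3 and Pdk4. Fabp3 (ENSMUSG00000028773, GRCm38, chr4:130308595-130315463) codes for the fatty acid-binding protein of heart and muscle, which carries fatty acids through the cytoplasm. Its level was 5.13, 3.16, 3.13 and 2.95 CPM in Con+Veh replicates 1 to 4 and 55.9, 25.6 and 29.7 CPM in STZ-HFD replicates 2 to 4. All 3 STZ-HFD libraries lay far above the highest control, and so did the library left out at 39.8 CPM. On the log2 scale the rise was 3.27 with a standard error of 0.30 (adjusted p = 0.00307, limma). edgeR gave an adjusted p of 0.0188, and limma without Con+Veh replicate 3 gave 0.108.

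Pdk4 (ENSMUSG00000019577, GRCm38, chr6:5483351-5496309) codes for pyruvate dehydrogenase kinase 4. Its level was 15.7, 10, 15.2 and 8.11 CPM in Con+Veh and 132, 93.3 and 71.6 CPM in STZ-HFD, and 75.4 CPM in the library left out. The groups did not overlap, and the rise was 2.91 on the log2 scale with a standard error of 0.28 (adjusted p = 0.00307, limma). edgeR gave an adjusted p of 0.0188, and limma without STZ-HFD replicate 3 gave 0.0845.

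Of 9 genes of fatty acid uptake and binding, 4 were called higher and 0 lower, and of 14 PPAR target and lipid droplet genes 4 were called higher and 0 lower. The median log2 fold change of all 23 was 0.89, against 0.02 over all protein-coding genes tested. Cd36, the scavenger receptor that takes up long-chain fatty acids, was at 12.0 to 32.7 CPM in Con+Veh and 38.9 to 67.5 CPM in STZ-HFD (log2 fold change 1.32, standard error 0.24, adjusted p = 0.0224, limma), and the library left out was inside the control range at 24.7 CPM. Acsl1, which couples fatty acids to coenzyme A, had a log2 fold change of 1.11 with overlapping levels, 67.6 to 134 against 115 to 196 CPM. Plin4, a lipid droplet coat protein, was at 41.7 to 88.3 CPM in Con+Veh and 140 to 221 CPM in STZ-HFD (log2 fold change 1.47), and inside the control range in the library left out at 72.9 CPM. Mlycd, which removes the malonyl-CoA that holds back fatty acid entry into mitochondria, was at 3.55 to 9.12 CPM against 15.1 to 26.2 CPM (log2 fold change 1.61), and at 24.3 CPM in the library left out. Ucp3, a mitochondrial carrier of muscle, was at 0.91 to 2.18 CPM against 4.56 to 12.5 CPM (log2 fold change 1.93). Angptl4, a secreted lipase inhibitor and PPAR target, did not pass (log2 fold change 1.20, adjusted p = 0.151, limma).

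Fatty acid oxidation followed the same direction. Of 5 carnitine shuttle genes tested 2 were called higher, of 21 beta-oxidation genes 5 were called higher, none of either was called lower, and the median over the 26 was 0.85. Acadl, the long-chain acyl-CoA dehydrogenase, was at 2.02, 9.1, 6.41 and 4.64 CPM in Con+Veh and 21.7, 31.5 and 15.5 CPM in STZ-HFD. The groups did not overlap (log2 fold change 2.04, standard error 0.35, adjusted p = 0.0197, limma), and the library left out was between them at 13.3 CPM. Acaa2, the thiolase of the last step, was at 20.1 to 43.2 CPM in Con+Veh and 57.6 to 103 CPM in STZ-HFD (log2 fold change 1.63). Decr1 (4.68 to 12.0 against 15.6 to 25.5 CPM) and Ech1 (4.29 to 7.01 against 14.1 to 16.5 CPM), both needed for unsaturated fatty acids, had log2 fold changes of 1.70 and 1.21. Slc25a20, the carnitine carrier of the inner membrane, was called higher only without STZ-HFD replicate 1 (log2 fold change 1.74, adjusted p = 0.0487, and 0.0505 with that replicate, limma), and its levels overlapped.

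Respiratory chain and tricarboxylic acid cycle genes had mostly positive log2 fold changes, and few passed singly. Of 77 nuclear subunit genes of complexes I to V, 76 had a positive log2 fold change (51.5% of all genes tested had one), 9 were called higher and 0 lower, and the median was 0.92. Cox8b, a muscle form of a cytochrome c oxidase subunit, was at 13.4, 31.8, 15.8 and 27.4 CPM in Con+Veh and 47, 115 and 63.8 CPM in STZ-HFD (log2 fold change 2.02, adjusted p = 0.0191, limma). Its groups did not overlap, and the library left out was at 46.4 CPM. Of 17 tricarboxylic acid cycle genes 6 were called higher and 0 lower (median 0.93), among them the isocitrate dehydrogenase gene Idh2 at 18.6 to 34.4 CPM in Con+Veh and 49.5 to 80.5 CPM in STZ-HFD. The 12 tested genes of the mitochondrial genome had a median of 0.60, 0 were called, and the median was -0.13 without STZ-HFD replicate 4.

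Sugar-handling genes included the largest rise. Fbp2, the muscle fructose bisphosphatase, was at 0.82, 0.0798, 0.282 and 0.202 CPM in Con+Veh and 6.88, 3.67 and 2.33 CPM in STZ-HFD, and at 5.51 CPM in the library left out. In Con+Veh replicates 2 to 4 the level was near that of 3 counts. The rise was 3.82 on the log2 scale (standard error 0.69, adjusted p = 0.0224, limma). Pck1, the gluconeogenic phosphoenolpyruvate carboxykinase, was at 3.05, 3.35, 4.05 and 1.86 CPM in Con+Veh and 11.3, 12.5 and 10.8 CPM in STZ-HFD (log2 fold change 1.90, standard error 0.29, adjusted p = 0.015, limma). All 3 STZ-HFD libraries and the library left out, at 10.9 CPM, lay above every control. Of 20 glycolysis genes 7 were called higher and 0 lower (median 0.77), and of 12 glycogen and transport genes 7 were called higher and 0 lower (median 1.16). Pfkm, the muscle phosphofructokinase, was at 59.9 to 111 CPM against 177 to 332 CPM (log2 fold change 1.81), and Pygm, the muscle glycogen phosphorylase, at 168 to 230 CPM against 418 to 507 CPM (log2 fold change 1.37). Both lay inside or near the control range in the library left out, at 97.5 and 197 CPM.

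Contractile genes had the most calls of any list. Of 40 sarcomere and calcium-handling genes 27 were called higher and 0 lower, with a median of 1.27. The list holds markers of the muscle sum given above and is not independent of it. Myh2, the myosin of fast oxidative fibres, was at 665, 486, 289 and 387 CPM in Con+Veh and 1428, 1350 and 1148 CPM in STZ-HFD (log2 fold change 1.91, standard error 0.26, adjusted p = 0.0119, limma). The groups did not overlap, but the library left out was at 526 CPM, inside the control range. Acta1, skeletal actin, behaved alike, with 1130 to 2286 CPM in Con+Veh, 3260 to 4542 CPM in STZ-HFD and 2000 CPM in the library left out (log2 fold change 1.63). Ttn, the giant titin spring, had the highest level of any gene called higher, 7044 to 23414 CPM against 21805 to 28202 CPM, its groups overlapped, and the library left out was at 10878 CPM. Tcap, which anchors titin at the Z-disc, was at 96.7 to 139 CPM in Con+Veh and 259 to 360 CPM in STZ-HFD, and here the library left out was at 261 CPM. Ckmt2, the mitochondrial creatine kinase, was at 7 to 13.1 CPM against 26 to 32.3 CPM (log2 fold change 1.82). Myl3, the slow-fibre myosin light chain, had 23.2 to 86.4 CPM against 94.9 to 327 CPM (log2 fold change 2.30).

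Muscle ubiquitin ligases and metabolic regulators also included calls. Trim63, the ligase MuRF1 that marks myofibrillar proteins for breakdown, was at 7.42, 6.48, 5.81 and 5.77 CPM in Con+Veh and 16.3, 15 and 17.2 CPM in STZ-HFD (log2 fold change 1.41, adjusted p = 0.0127, limma), without overlap. Fbxo32, the ligase atrogin-1, was at 27.1 to 37 CPM against 57 to 74.1 CPM (log2 fold change 1.11), and at 34.1 CPM in the library left out. None of the 14 core or 17 regulator subunit genes of the proteasome was called by limma, with medians of 0.35 and 0.43. Of 22 genes of PPAR, PGC-1 and ERR regulators 3 were called higher and 0 lower (median 0.45). These were Esrrg (4.19 to 6.11 against 8.3 to 13.4 CPM), its muscle cofactor Perm1 (8.52 to 17 against 26.4 to 32.2 CPM) and Prkaa2, the catalytic subunit of AMP kinase in muscle (15.3 to 43.4 against 25.4 to 51.8 CPM), whose levels overlapped. Ppara and Ppargc1a did not pass, with log2 fold changes of 1.08 (adjusted p = 0.202, limma) and 1.00 (adjusted p = 0.0582, limma). Of 35 lipid synthesis genes 3 were called higher and 0 lower (median -0.23), including Gpam, the acyltransferase that opens triglyceride synthesis (17.8 to 33.4 against 47.3 to 73.3 CPM), which was at 29.2 CPM in the library left out.

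**Figure D4:**
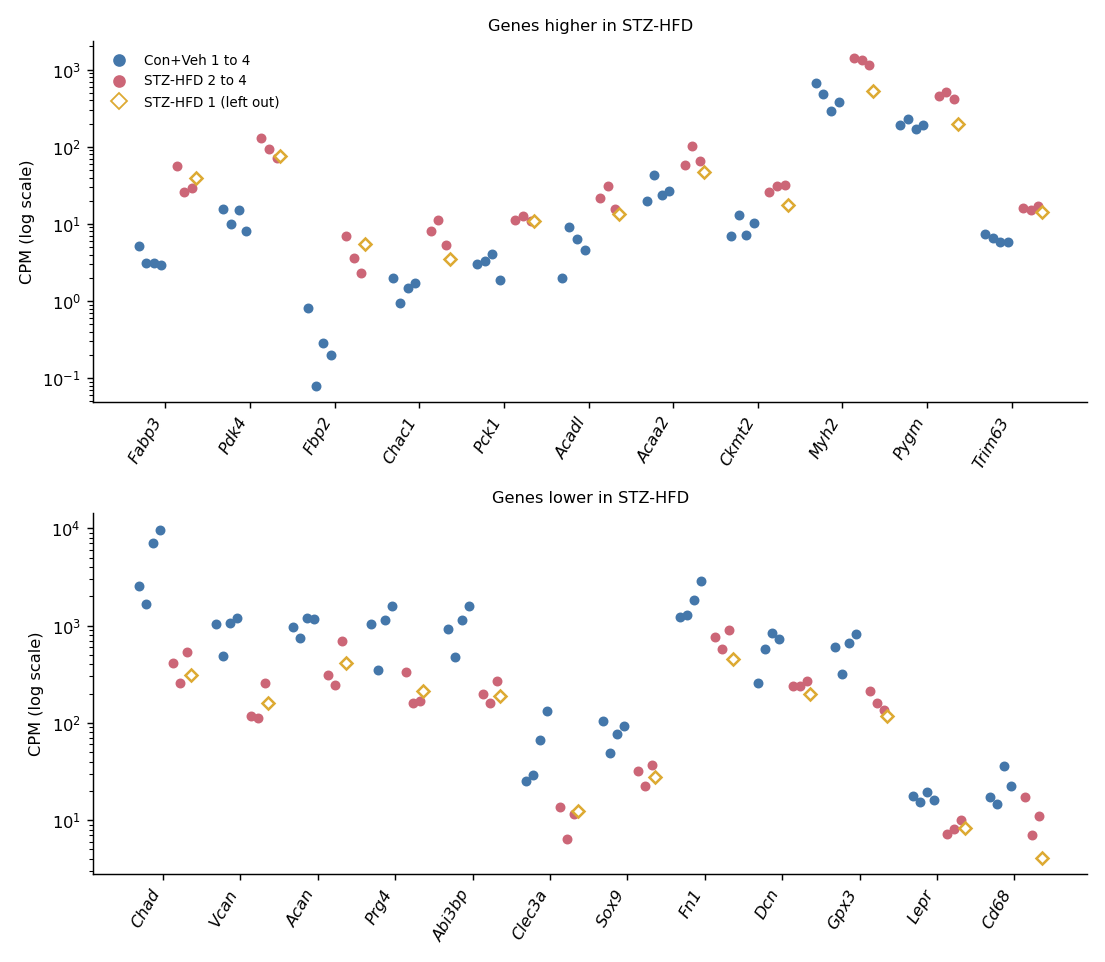
CPM (log axis) of 11 genes higher (top) and 12 genes lower (bottom) in STZ-HFD, 1 point per library, for Con+Veh (blue), STZ-HFD replicates 2 to 4 (red) and the library left out (open diamonds). In the library left out Fabp3, Pdk4, Fbp2, Pck1, Chad and Vcan lie with the STZ-HFD libraries, while Myh2 and Pygm lie with the controls.

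Dividing each gene by the muscle sum of its own library separated a few genes from the rest. This division, and the choice of genes shown with it, were made after the values were seen, and no test was run on it. Of 12290 genes, 9 (0.0732%) had all 3 STZ-HFD ratios above all 4 Con+Veh ratios, and 8 of these 9 had been called higher, among them Fbp2, Fabp3, Pdk4, Chac1, Pck1, Apol6 and Cacng6. The ratio was below in all 3 for 7493 genes (61%), as the muscle sum itself was higher in those libraries. Per 10000 CPM of muscle markers, Fabp3 was at 3.85 to 6.12 CPM in Con+Veh, 13.7 to 32.5 in STZ-HFD and 46.7 in the library left out. Pdk4 was at 10.6 to 23.6, 41.8 to 76.6 and 88.5 in the same order. The library left out had the highest ratio of both genes. Its CPM of both lay inside the range of the other STZ-HFD libraries, and its muscle sum, the divisor, was 8518 CPM, near the controls.

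Other genes with separated ratios were at low levels. Fbp2 was at 0.103 to 0.978 CPM per 10000 CPM of muscle markers in Con+Veh, 1.36 to 4.01 in STZ-HFD and 6.47 in the library left out. Chac1, a glutathione-degrading enzyme induced through ATF4, was at 1.21 to 2.36, 3.16 to 6.07 and 4.13 in the same order. Pck1 separated by the narrowest gap, 2.43 to 6.28 against 6.3 to 6.73, with 12.8 in the library left out.

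The ratios of most metabolic and contractile genes overlapped between the groups. All 3 ratios were below the controls for 6 of 26 fatty acid oxidation genes, 7 of 77 respiratory chain genes, 7 of 26 genes of the tricarboxylic acid cycle and pyruvate entry and 4 of 40 sarcomere and calcium-handling genes, against 61% of all genes. They were above the controls for 0 genes of these lists, where the share over all genes was 0.0732%, and for Fabp3 and Pdk4 among 23 fatty acid uptake and PPAR target genes. The 12 genes of the muscle sum are all in the sarcomere and calcium-handling list. Dividing a gene by a sum that contains it pulls its ratio toward no difference. Acadl was at 2.41 to 11.7 CPM per 10000 CPM of muscle markers in Con+Veh and 9.08 to 16.9 in STZ-HFD. Cd36 (14.4 to 42 against 22.6 to 36.5), Acsl1 (82.4 to 173 against 66.9 to 105), Trim63 (7.54 to 9.02 against 8.05 to 10.1) and Pygm (229 to 296 against 244 to 272) overlapped likewise. The ratio of Fbxo32 was below in all 3 STZ-HFD libraries, 33.3 to 39.8 against 41 to 48.3, although its CPM was higher.

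**Figure D5:**
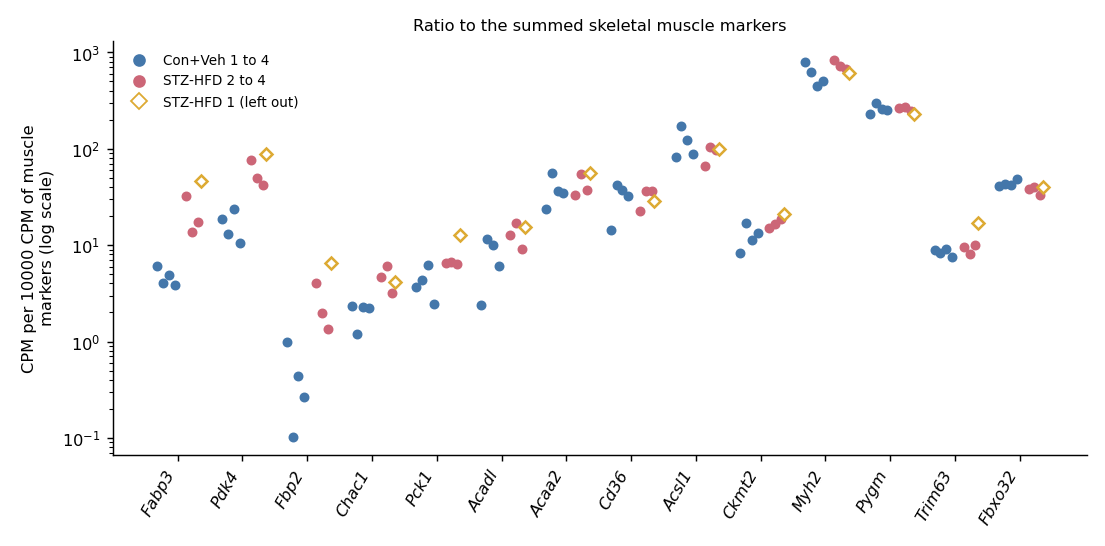
CPM of 14 genes per 10000 CPM of summed skeletal muscle markers (log axis), 1 point per library, for Con+Veh (blue), STZ-HFD replicates 2 to 4 (red) and the library left out (open diamonds). The ratios of Fabp3, Pdk4, Fbp2, Chac1 and Pck1 are above every control in all 3 STZ-HFD libraries, and those of Acadl, Cd36, Myh2 and Pygm overlap. Myh2 is itself part of the sum.

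Many cartilage matrix genes were lower in STZ-HFD discs. Of 29 tested, 14 were called lower and 0 higher, and the median log2 fold change was -1.29 (-1.0 with voom without quality weights). Chad (ENSMUSG00000039084, GRCm38, chr11:94565047-94569127) codes for chondroadherin, a leucine-rich protein that links chondrocytes to collagen. Its level was 2546, 1667, 7045 and 9638 CPM in Con+Veh and 408, 256 and 530 CPM in STZ-HFD, and 308 CPM in the library left out. Every STZ-HFD library lay far below the lowest control (log2 fold change -4.24, standard error 0.41, adjusted p = 0.00307, limma). It was called in 15 of 20 alternatives, and edgeR gave an adjusted p of 0.175.

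Of 6 genes of aggregating proteoglycans and their partners 4 were called lower and 0 higher, with a median of -1.67. Vcan, the large proteoglycan versican, was at 1040, 491, 1052 and 1200 CPM in Con+Veh and 118, 113 and 260 CPM in STZ-HFD (log2 fold change -2.79, standard error 0.32, adjusted p = 0.00999, limma). Acan, aggrecan itself, was at 976, 753, 1187 and 1174 CPM in Con+Veh and 307, 245 and 701 CPM in STZ-HFD (log2 fold change -1.65, standard error 0.34, adjusted p = 0.0325, limma). Neither gene's groups overlapped, though Acan in STZ-HFD replicate 4 was near the lowest control, and the library left out was at 162 CPM for Vcan and 411 CPM for Acan. Prg4, the joint lubricant lubricin, was at 349 to 1581 CPM against 162 to 336 CPM (log2 fold change -2.62). Hapln1, the link protein that fastens aggrecan to hyaluronan, had overlapping levels, 22.2 to 140 against 17.3 to 52 CPM (log2 fold change -1.68, adjusted p = 0.0487, limma). Has2, the hyaluronan synthase, and Hapln3 did not pass (log2 fold changes -1.18 and -0.83).

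Among 23 matrix glycoprotein genes 10 were called lower and 0 higher, with a median of -1.28. Clec3a, a lectin of cartilage, was at 25.5 to 134 CPM in Con+Veh and 6.4 to 13.8 CPM in STZ-HFD (log2 fold change -3.05). Ecrg4, a secreted peptide precursor, was at 6.81 to 22.3 CPM against 2.56 to 5.99 CPM (log2 fold change -2.43). Fn1, fibronectin, was at 1229 to 2866 CPM against 568 to 910 CPM (log2 fold change -1.54). Cytl1, a cytokine-like protein of chondrocytes, and Comp, the pentameric thrombospondin of cartilage, had overlapping levels, with log2 fold changes of -2.87 and -1.28. Outside the list, Abi3bp, a matrix protein of connective tissue, was at 474 to 1583 CPM against 162 to 269 CPM (log2 fold change -2.58), and Sox9, the chondrocyte master factor, at 49.3 to 104 CPM against 22.5 to 36.8 CPM (log2 fold change -1.51, adjusted p = 0.0161, limma). Of 25 tested genes of chondrocyte regulators and hypertrophy 3 were called lower and 1 higher (median -0.61). Sox9 was the only call among its 8 chondrocyte factors, of which 3 had a positive log2 fold change. The gene called higher was Npr3, at 14 to 18.9 CPM in Con+Veh and 24.1 to 39 CPM in STZ-HFD (log2 fold change 1.10, adjusted p = 0.0283, limma).

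The small leucine-rich proteoglycans, which space collagen fibrils, had 5 of 13 genes called lower and 0 higher, with a median of -1.13 (-0.67 with edgeR). Dcn, decorin, was at 259, 579, 841 and 735 CPM in Con+Veh and 240, 242 and 270 CPM in STZ-HFD, so that Con+Veh replicate 1 lay among the STZ-HFD libraries (log2 fold change -1.56). Prelp (167 to 314 against 95.1 to 130 CPM), Fmod (225 to 449 against 109 to 176 CPM) and Ecm2 (79.2 to 119 against 47.7 to 52.6 CPM) separated fully. None of the 11 fibrillar collagen genes was called, with a median of -0.47. Col2a1, the collagen of cartilage and nucleus, was at 209, 121, 297 and 771 CPM in Con+Veh and 111, 84.6 and 146 CPM in STZ-HFD (log2 fold change -1.81, adjusted p = 0.0513, limma). It passed with STZ-HFD replicate 1 in the fit (adjusted p = 0.0433, limma). Of the basement membrane and beaded collagens, 3 of 11 were called lower, Col8a2, Col6a1 and Col6a2, the last pair with overlapping levels. Of 9 fibril-associated and hypertrophic collagens, Col22a1, a collagen of muscle and tendon junctions, was called higher, at 2.18 to 4.24 CPM in Con+Veh, 5.94 to 9.95 CPM in STZ-HFD and 15.1 CPM in the library left out (log2 fold change 1.51, adjusted p = 0.0353, limma). Of 24 collagen processing genes 2 were called lower, Pcolce2, which enhances procollagen cleavage, and the crosslinking oxidase Lox, both with overlapping levels.

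Relative to Col2a1, most of these genes did not separate. Per 100 CPM of Col2a1, Chad was at 1221 to 2372 CPM in Con+Veh, 302 to 368 in STZ-HFD and 316 in the library left out, with no overlap. Cytl1 (31 to 61.7 against 19.8 to 26.6) and Abi3bp (205 to 447 against 177 to 191) were also below in all 3 STZ-HFD libraries. The share of all genes below on this ratio is not given, so these separations cannot be set against it. Vcan (156 to 499 against 106 to 179), Acan (152 to 622 against 276 to 481), Sox9 (12.2 to 49.9 against 25.2 to 28.8) and Prg4 (205 to 502 against 116 to 303) overlapped. These 10 genes, of which the others were Hapln1, Comp and Clec3a, were chosen after the values were seen, and no test was run on the ratio.

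Matrix turnover genes gave few calls, where 1.88% of all genes tested were called higher and 1.05% lower. Of 34 proteases and inhibitors, 1 was called higher, the aggrecanase-family gene Adamts8 (0.904 to 3.26 against 3.92 to 6.65 CPM), and 2 lower. These were Adam10, a membrane sheddase, at 56.7 to 93.9 against 36.2 to 46 CPM, and the protease inhibitor gene Serpine2, whose levels overlapped. None of the 10 matrix metalloproteinase genes tested was called, and their median was -0.46. Of 33 glycosaminoglycan synthesis genes 3 were called lower and 0 higher (median -0.39), namely Csgalnact2, Chst11 and Ugdh, which start, sulfate and supply chondroitin chains. The levels of Ugdh overlapped.

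The inflammatory gene lists held few calls, and those were lower (1.05% of all genes tested were called lower). Of 43 genes of a chemokine, interleukin and growth factor panel, 8 passed the filter, 30 had counts but did not, and 5 had no count in the 7 libraries. None of the 8 was called by limma. Il1b was at 0.105 to 0.525 CPM in Con+Veh and 0.08 to 0.24 CPM in STZ-HFD, Tnf at 0.0807 to 0.634 against 0.144 to 0.934 CPM, and Il6 at 0 to 0.161 against 0 to 0.144 CPM, all under 1 CPM. These genes did not pass the filter and were not tested. Cxcl9, an interferon-induced chemokine, was at 0.778 to 0.986 CPM against 1.63 to 2.49 CPM, but did not pass (log2 fold change 1.10, adjusted p = 0.136, limma). Outside the panel, Il33, the epithelial and stromal alarmin, was at 2.48, 3.94, 7.01 and 9.08 CPM in Con+Veh and 0.534, 1.05 and 0.691 CPM in STZ-HFD (log2 fold change -2.99, adjusted p = 0.0224, limma). Cxcl13, the B cell attractant, was at 0.988 to 2.57 CPM against 0.0959 to 0.161 CPM (log2 fold change -3.90, adjusted p = 0.0289, and 0.0657 with replicate 1, limma), and the STZ-HFD levels were close to that of 3 counts. Gbp10, an interferon-inducible guanylate-binding protein outside the lists, was called higher, at 0.986 to 3.16 CPM in Con+Veh, 4.05 to 8.48 CPM in STZ-HFD and 3.41 CPM in the library left out (log2 fold change 2.16, adjusted p = 0.0332, limma). It belongs to a family of closely similar genes among which reads can be split, so its level is uncertain.

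Of 30 macrophage and Fc receptor genes 29 had a negative log2 fold change (5956 of all 12290 genes had one), 3 were called lower and 0 higher, and the median was -0.91. Lyve1, a receptor of resident macrophages and lymphatic vessels, was at 22.1 to 40.4 CPM in Con+Veh and 11.8 to 18.3 CPM in STZ-HFD (log2 fold change -1.29). Fcgr3, an activating Fc receptor, was at 4.13 to 9.05 CPM against 1.34 to 3.41 CPM (log2 fold change -1.84). Cd68, the lysosomal macrophage marker, had overlapping levels, 14.5 to 36.4 against 7.07 to 17.4 CPM. Of 23 complement genes 3 were called lower and 0 higher (median -0.57), namely Clu, C3ar1 and C3. The levels of Clu and C3 overlapped between the groups, and those of C3ar1 did not. None of 28 NF-kB and TNF superfamily genes (median 0.03) or 18 interferon-stimulated genes (median 0.19) was called by limma, with smallest adjusted p of 0.121 and 0.184.

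Signalling genes were mostly below the test's limits. Over all genes tested 1.05% were called lower, and a single call does not set a list apart from that share. Lepr, the leptin receptor, was at 17.7, 15.5, 19.5 and 16.3 CPM in Con+Veh and 7.18, 8.08 and 10.1 CPM in STZ-HFD (log2 fold change -1.07, standard error 0.21, adjusted p = 0.0259, limma). The groups did not overlap, and the library left out was at 8.31 CPM. Of 12 hedgehog pathway genes 2 were called lower, Smo, the signal transducer (19.5 to 33.4 against 13.1 to 17.3 CPM), and the co-receptor gene Cdon (72.6 to 83.9 against 27.1 to 55.3 CPM). Of 34 Wnt pathway genes only Lgr6, an R-spondin receptor, was called (log2 fold change -1.61), and of 35 TGF-beta and BMP genes 0 were. Igfbp6, which binds IGF-II, was the only call among 32 IGF and insulin genes (log2 fold change -1.24). Of 35 antioxidant genes 2 were called lower, both secreted enzymes, Gpx3 at 317 to 828 CPM against 137 to 215 CPM (log2 fold change -2.06) and Sod3 at 48.5 to 122 CPM against 26.4 to 32.6 CPM (log2 fold change -1.87). Npas2 was the only call among 22 clock genes, with overlapping levels (log2 fold change -2.12), and Per2, a core clock gene, had a log2 fold change of 0.06.

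Stress, glycation and housekeeping lists held single calls, which do not set them apart from the 1.88% of all genes called higher and 1.05% called lower. Of 44 stress response genes 2 were called higher and 0 lower (median 0.01). The first was Chac1, at 1.98, 0.942, 1.48 and 1.7 CPM in Con+Veh and 8.11, 11.3 and 5.41 CPM in STZ-HFD (log2 fold change 2.50, standard error 0.39, adjusted p = 0.016, limma). The other was the p53 target Phlda3 (log2 fold change 1.01). Of 38 genes of glycation receptors and carbonyl metabolism 1 was called higher, the proline catabolic enzyme Aldh4a1 (median 0.01). Of 36 glucocorticoid-responsive and immediate early genes (median -0.04) 1 was called lower, Klf4, whose levels overlapped. No gene of the cytosolic ribosome (52 tested, median -0.11) or of the cell cycle (18 tested, median -0.16) was called by limma at both thresholds. Over all 12290 genes, 2569 had an unadjusted p under 0.05 in the limma fit. For the sets named above in which limma called 0 genes, this number was 5 of 11 fibrillar collagens, 1 of 10 matrix metalloproteinases, 15 of 35 TGF-beta and BMP genes, 6 of the 8 tested panel genes, 3 of 28 NF-kB and TNF superfamily genes and 2 of 18 interferon-stimulated genes. It was 3 of 14 core and 7 of 17 regulator proteasome genes, 7 of 52 ribosomal, 1 of 18 cell cycle and 2 of 12 mitochondrial genome genes, and edgeR and DESeq2 also called 0 in each of these sets. Within the glycation list, limma called 0 of 13 receptor and ligand genes, 3 had an unadjusted p under 0.05, and DESeq2 called 1.

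Most of the remaining genes with the largest changes were below 25 CPM. Uts2r, the urotensin receptor, was at 8.49 to 20.6 CPM in Con+Veh and 2.28 to 3.23 CPM in STZ-HFD (log2 fold change -2.75), and Slurp1, a secreted Ly6 protein, at 3.28 to 16.8 CPM against 1.39 to 2.11 CPM (log2 fold change -2.71). Spp1, the bone matrix cytokine osteopontin, was higher in level, at 405 to 809 CPM against 108 to 226 CPM (log2 fold change -2.26). Hcar1, the lactate receptor of fat cells, was at 0.211 to 1.57 CPM against 2.75 to 3.4 CPM, and Pax3, a transcription factor of muscle precursors, at 0.0807 to 1.13 CPM against 1.55 to 2.16 CPM. Both were called higher only without STZ-HFD replicate 1 (log2 fold changes 2.53 and 2.79, adjusted p = 0.0488 and 0.048, limma), in which they were at 4.82 and 5.62 CPM. Cox7a1 and Cox5b, 2 cytochrome c oxidase subunits, were called only with that replicate, at log2 fold changes of 1.06 and 1.02 against 0.99 and 1.00 without it.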

How the data were processed

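RNA of the pooled caudal discs of each mouse was amplified with SeqPlex before library construction and sequenced. Per the labels and the submitters' processing notes, the authors aligned reads with STAR to GRCm38 with Ensembl release 101 and counted them per gene with featureCounts, and the deposited gene table holds raw counts. The authors also deposited Salmon estimated counts per transcript, which were summed per gene and rounded for 1 alternative. The strand setting of the counting is not given in the sources used here, so reads of overlapping antisense genes cannot be told apart. Amplified reads are not independent molecules, and the 3-count level covers counting error only.

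The table held 55774 lines, of which 287 repeated a gene with the same values and were used once. Total counts were 23173075 to 58943169 in the 7 libraries, ribosomal RNA took 45.82 to 60.25% of them, and no pair of libraries of a group agreed within counting noise. All libraries carry 1 batch label. A name ending, RIP, is shared by STZ-HFD replicate 4 and Con+Veh replicate 2, and its meaning is not given. The library names also begin with the same prefix in all Con+Veh libraries and with another in all STZ-HFD libraries. The meaning of these prefixes is not given, and anything they mark cannot be told apart from the treatment.

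Genes of all types with more than 1 CPM in at least 3 of the 7 libraries (14117 genes) were fitted with edgeR 4.0.16 TMM factors and limma 3.58.1 voomWithQualityWeights in R 4.3.3, with 1 mean per group, and adjusted by Benjamini-Hochberg over all genes tested before protein-coding genes were kept. Weights ran from 0.283 (Con+Veh replicate 1) to 2.96 (Con+Veh replicate 3). The other fits used quasi-likelihood in edgeR, DESeq2 1.42.0, no weights, other scaling and filters, other sets of libraries, a replicate block and transcript totals. The steps were tested on simulated data. The members, gene lists and markers were chosen with earlier results of these data known. Named genes were the 12 largest non-overlapping calls per direction, up to 4 called members per list or else the one with the lowest p, the 5 per direction called only with or only without STZ-HFD replicate 1, and the 3 with the highest level per direction. Ucp3, Cd36, Acsl1, Clcn1, Ppp1r3a, Cytl1, Comp, Hapln1, Apol6, Cacng6 and other genes without a call that complete a list were named after their values were seen. Coordinates are from GENCODE M21 and promoter windows from RefSeq.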

Additional observations from a re-analysis of the deposited data

Results flagged for a closer look

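Of 146 values examined, 7 had a sample far from the others of its group by Dixon's test, which chance alone would flag in about 1 of 20 groups. STZ-HFD replicate 1 had a count on 1106 olfactory receptor genes against 178 to 313 in the other STZ-HFD libraries. This value led to its removal, so its flag was fixed in advance and is no support for the removal. Con+Veh replicate 1 was high for Fabp3 at 5.13 CPM (2.95 to 3.16 in the other controls), and low for Cox7a1 at 26.8 CPM (61.4 to 64.9) and Cox5b at 16.1 CPM (34.5 to 37.8). Con+Veh replicate 2 was high for Pgm1 at 48.9 CPM (17.8 to 22.2) and Prkaa2 at 43.4 CPM (15.3 to 16.7), and low for Alpl at 17.4 CPM (34.1 to 36). The log2 fold change of Fabp3 without Con+Veh replicate 1 was 3.31 (adjusted p = 0.00983, limma).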

How the results depend on the processing

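With 3 against 4 mice, amplified RNA and 45.82 to 60.25% of counts on ribosomal RNA, the calls depended on how libraries were weighted. The numbers called higher and lower were 2 and 0 with edgeR (1206 genes at an unadjusted p under 0.05), 104 and 90 with DESeq2, 2 and 0 with voom without weights, 123 and 75 with filterByExpr, 58 and 33 with no filter, 302 and 201 with 13 libraries of 4 groups, 144 and 136 with STZ-HFD replicate 1, 7 and 22 without both RIP libraries, and 17 and 13 with transcript totals. An edgeR fit on 8 libraries, added after the data were seen, gave 2 and 0. Leaving out 1 library gave 1 to 368 higher and 0 to 289 lower. The cause of these changes was not tested. The calls moved by no more than 1.5 times with RLE factors (196 and 131), protein-coding genes only (240 and 128), ribosomal RNA removed (169 and 86) and no minimum fold (271 and 142). Same-numbered mice are different animals, and their deviations correlated at -0.424, -0.0566 and -0.0893, so the numbers did not pair the samples; the replicate block gave 85 higher and 136 lower, with 77 and 72 shared. Genes gave 1350 values on the same side, 43 stronger and 1172 weaker, and Fbxo40 reversed (-0.48 with transcript totals).

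No list median was counted as reversed, but some changed sign. With 1 library left out, that of the mitochondrial genome genes ran from -0.13 to 1.04. The list medians that moved were, with edgeR, -0.67 for small leucine-rich proteoglycans, -0.19 for glucocorticoid and immediate early genes and 0.32 for PPAR regulators. With DESeq2 they were 0.74 for fatty acid oxidation, 1.08 for sarcomere, -0.7 for small leucine-rich proteoglycans, -0.22 for glucocorticoid genes and 0.3 for PPAR regulators. Without weights they were -0.73 for small leucine-rich proteoglycans, -0.19 for glycosaminoglycan synthesis, -0.14 for proteases and -0.16 for elastic fiber genes. With transcript totals they were 0.97 for fatty acid oxidation, 0.66 for glycolysis, 0.14 for branched-chain catabolism and 0.82 for PPAR regulators. Without both RIP libraries they were -0.22 for glycosaminoglycan synthesis and 0.32 for interferon-stimulated genes. With edgeR on 8 libraries they were 0.71 for uptake and PPAR targets, 0.64 for fatty acid oxidation, 0.6 for the tricarboxylic acid cycle, 0.59 for glycolysis, 0.19 for branched-chain catabolism, 0.92 for sarcomere, -0.68 for small leucine-rich proteoglycans, -0.18 for glycosaminoglycan synthesis, -0.14 for proteases, -0.26 for clock, -0.21 for glucocorticoid genes, 0.26 for PPAR regulators and -0.03 for cell cycle. Leaving out 1 library gave 0.87 to 1.08 for uptake and PPAR targets, 0.73 to 0.92 for fatty acid oxidation, 0.2 to 0.31 for branched-chain catabolism, 1.04 to 1.34 for sarcomere, -1.17 to -0.77 for small leucine-rich proteoglycans, -0.49 to -0.03 for proteases, -0.03 to 0.2 for NF-kB, 0.03 to 0.23 for interferon-stimulated genes, -0.21 to -0.04 for glucocorticoid genes, 0.35 to 0.61 for PPAR regulators and -0.27 to -0.03 for cell cycle.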

Other observations

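Over all genes Con+Veh replicate 1 had the lowest rank correlations with the other controls (Spearman's rho 0.853 to 0.861 across genes, which are not independent, against 0.886 to 0.955 among the other 3), and it lay at -111 on the first principal component, where the other 6 libraries of the comparison lay between -13.4 and 30.3. On some levels, chosen after they were seen, replicates 1 and 2 differed from replicates 3 and 4. The summed level of 8 endothelial markers was 181 and 202 CPM in replicates 1 and 2 and 678 and 697 CPM in replicates 3 and 4, and that of 8 Schwann cell markers was 276 and 320 against 1994 and 2039 CPM. Fkbp4, a co-chaperone of steroid receptors, was at 19 and 26.6 CPM in replicates 1 and 2 and 498 and 779 CPM in replicates 3 and 4, against 40.7 to 59.9 CPM in STZ-HFD replicates 2 to 4. It was called lower only with STZ-HFD replicate 1 in the fit (log2 fold change -3.19, adjusted p = 0.0375, limma with Benjamini-Hochberg adjustment). Summed counts on olfactory receptor genes were 4921 and 3605 against 22448 and 22234 in the same order. Their quality weights were 0.283, 0.476, 2.96 and 1.74.

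Genes called only with STZ-HFD replicate 1 included Col2a1, Ibsp, the bone sialoprotein (126, 53.9, 212 and 171 CPM in Con+Veh, 146, 45.4 and 55.9 CPM in STZ-HFD), Pdgfrl and Ppp1r1b among those lower and Lrpprc, a mitochondrial RNA-binding protein, and Frem2 among those higher. Genes called lower only without it included Rab11fip1, Cyp3a13 and Steap2, which were at 8.02, 4.1 and 12.9 CPM in that library against 4.69 to 8.27, 2.57 to 6.4 and 5.26 to 8.17 CPM in Con+Veh.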
